A study of Homo sapiens with 6 samples.

Results

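The nuclear-encoded genes of the mitochondrial respiratory chain and ATP synthase were examined in 786-O cells, an established human clear cell renal carcinoma line that lacks functional VHL, after knockdown of the mRNA export adaptor ALYREF. The members were the rows whose symbol began with NDUF, SDHA, SDHB, SDHC, SDHD, UQC or ATP5, or with COX and a digit. This rule found 106 of the 11679 genes in each deposited table. Of these, 75 encode subunits, 25 encode assembly or supercomplex factors, and 6 are other matches: the pseudogenes SDHAP1, SDHAP2 and UQCRBP1, the gene copy UQCRHL, the antisense transcript NDUFB2-AS1, and ATP5S, known as coupling factor B.

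Polyadenylated RNA was measured in 3 groups of 2 libraries: cells given ALYREF siRNA5, cells given ALYREF siRNA8, and cells given a non-targeting siRNA (NTC). All 6 libraries came from this single line, grown in RPMI with serum and transfected with the same reagent. The cells were split 24 h after transfection and harvested 48 h after it. The labels do not say whether the duplicates were separate cultures, so the p-values reflect no more than library-to-library spread, possibly of technical origin. In bulk RNA, less transcript in every cell and loss from some of the cells cannot be told apart.

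The respiratory chain passes electrons from NADH through complex I, or from succinate through complex II, by way of ubiquinone to complex III, cytochrome c and complex IV, where oxygen is reduced. Complexes I, III and IV pump protons, and ATP synthase uses the gradient to make ATP. Except for complex II, each complex also holds subunits encoded in mitochondrial DNA, and each needs dedicated factors that insert its cofactors and join its parts. None of the 13 mitochondrially encoded genes was found by its symbol among the genes measured, so they were not analysed here. Clear cell renal carcinoma is known for a shift of energy metabolism from respiration towards glycolysis.

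The deposited tables give for each gene a mean normalized count over all libraries, and, against NTC, a log2 fold change, its standard error (SE) and an adjusted p for each siRNA. Values per library and the depth of each library were not analysed here. The levels per group below are therefore implied ones, computed from the mean and both fold changes on the assumption that the mean covers 3 equal groups and that the fold changes are unshrunken. An adjusted p under 0.05 counted as a call. The median mean was 848 normalized counts for the members (range 13.4 to 10400) and 459 for all genes; these counts are not adjusted for transcript length and are not compared between genes. ALYREF itself fell by 4.14 on the log2 scale with siRNA5 (SE 0.096), and with siRNA8 it fell by 3.67 (SE 0.085) per the authors' deposited tables. All 7 listed markers of the line (PAX8, EPAS1, VIM, KRT8, KRT18, CDH2 and ANPEP) were in the tables, with means from 182 to 53093, while of 8 markers of immune, endothelial and fibroblast cells only CD68 (202) and COL1A1 (48.5) were, per the authors' deposited tables.

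The largest changes among the members were falls, and the rises were small. With siRNA5, 13 of the 106 members rose and 14 fell by the adjusted p of the authors' deposited table, that is 25.5% called, where 46.4% of all genes were called (24.4% higher and 22.0% lower). With siRNA8, 25 rose and 15 fell by the authors' deposited table, or 37.7% called, where 41.5% of all genes were called (21.0% higher and 20.5% lower). Where the mean reached at least 500, the members called were 30.1% with siRNA5 and 43.8% with siRNA8, and all genes called were 59.0% and 53.6%. The share of members called thus lay clearly below the share of all genes with siRNA5. With siRNA8 the gap was small over all means (37.7% against 41.5%) and larger at means of at least 500 (43.8% against 53.6%). With siRNA8 the members' share of rises (23.6%) was slightly above that of all genes (21.0%), and their share of falls (14.2%) was below (20.5%). The members include the 6 other matches, none of them called. No test of these gaps was made. The median log2 change of the members was 0.02 with siRNA5 and 0.05 with siRNA8, beside 0.01 for all genes with each siRNA. The median size of the change was 0.12 and 0.15 in the members, and 0.25 and 0.23 in all genes. At means of at least 500 it was 0.11 and 0.13 in the members, and 0.20 and 0.18 in all genes. Called changes of at least 2-fold were 2 with siRNA5, both falls (NDUFAF8 and SDHAF4), and 2 with siRNA8, also falls (COX7C and COX20). Nearly all rises were small: with a log2 change of at least 0.3 required as well, 5 members were higher and 9 lower with siRNA5, and 4 were higher and 10 lower with siRNA8, where 33.4% and 28.6% of all genes were called under that setting. At an adjusted p under 0.01, 26 members were called with siRNA8, 15 of them rises, where 32.0% of all genes were called.

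**Figure D1:**
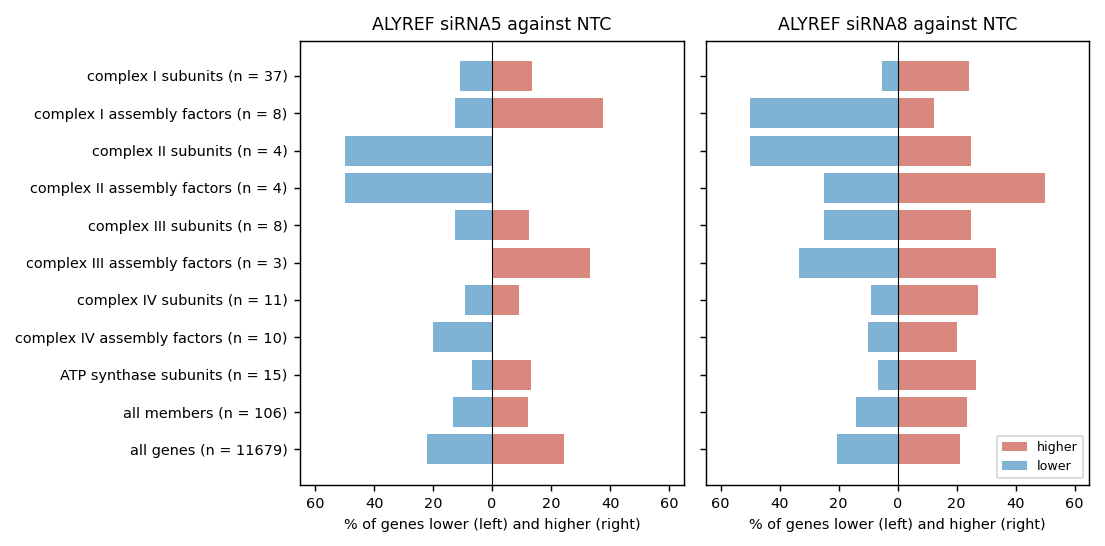
Percent of genes called higher (right, red) and lower (left, blue) against NTC at an adjusted p under 0.05, for each complex, all 106 members and all 11679 genes, with siRNA5 in the left panel and siRNA8 in the right panel. The ATP synthase and complex IV subunits have shorter bars than all genes with siRNA5, and bars of the groups with few genes move far with a single gene.

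The deepest change of any member was in COX7C, one of the small nuclear-encoded subunits of cytochrome c oxidase (complex IV). Its implied level was 1147 normalized counts with siRNA5, 209 with siRNA8 and 1185 with NTC, so that siRNA8 alone was low. COX7C fell 5.68-fold with siRNA8 (log2 -2.51, adjusted p = 3.13e-114, SE 0.11) per the authors' deposited table, to 17.6% of the control level (95% interval 15.2 to 20.4). With siRNA5 it stood at 96.8% of control (95% interval 86.7 to 108; adjusted p = 0.667) by the authors' deposited table. In the annotation used here (GENCODE 29) COX7C has 1 named pseudogene and shares exon bases on its strand with the transcript AC108110.1, and the sources used here do not give how the authors counted reads of such copies.

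NDUFAF8, an assembly factor of complex I that acts with NDUFAF5, was the deepest fall with siRNA5. Its implied level was 296 normalized counts with siRNA5, 414 with siRNA8 and 699 with NTC, so both knockdowns were low. NDUFAF8 fell to 42.3% of control with siRNA5 (log2 -1.24, adjusted p = 9.23e-24, SE 0.12) and to 59.1% with siRNA8 (log2 -0.76, adjusted p = 1.87e-10, SE 0.11) per the authors' deposited tables. At the other end, UQCC1, an assembly factor for cytochrome b of complex III, had the largest rise with each siRNA. Its implied level was 1602 with siRNA5, 1653 with siRNA8 and 1151 with NTC. UQCC1 rose to 139% of control with siRNA5 (log2 0.48, adjusted p = 3.92e-12, SE 0.065) and to 144% with siRNA8 (log2 0.52, adjusted p = 1.6e-14, SE 0.065) per the authors' deposited tables. The implied levels of 8 members, in the bar plots by group, show these patterns: low with siRNA8 only, low with siRNA5 only, low with both and high with both.

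**Figure D2:**
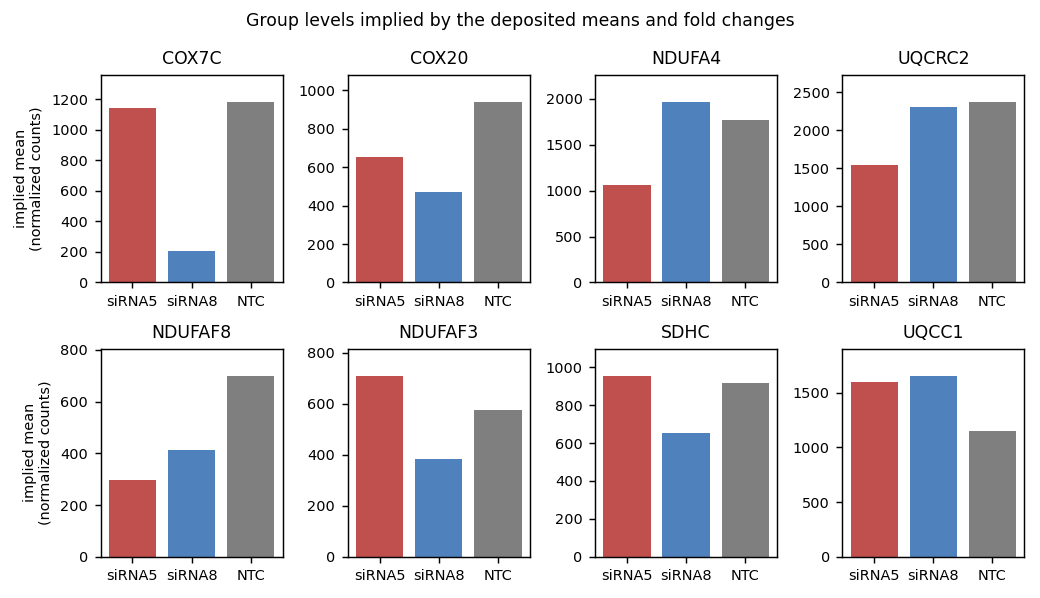
Implied mean normalized counts of 8 members in cells given siRNA5 (red), siRNA8 (blue) and NTC (grey), computed from the deposited mean and fold changes, each panel on its own axis from 0; there are no error bars because values per library were not analysed. COX7C and SDHC are low with siRNA8, NDUFA4 and UQCRC2 with siRNA5, COX20 and NDUFAF8 with both, UQCC1 is high with both, and NDUFAF3 lies above NTC with siRNA5 and below it with siRNA8.

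The promoters of these members that lead in each direction are shown to compare the sequence around their starts. They were read from RefSeq, build GRCh38.p14, as the 250 bases before and 50 after the most 5' start of the gene. COX7C lies at chr5:86617691-86617990 on the plus strand, NDUFAF8 at chr17:81239061-81239360 on the plus strand and UQCC1 at chr20:35411924-35412223 on the minus strand. Capitals mark matches on either strand to short cores of motifs known from promoters of respiratory chain genes: GCGCANGCG for NRF1, CCGGAAG for ETS factors such as GABPA, and ATGGCGGC for YY1.
COX7C: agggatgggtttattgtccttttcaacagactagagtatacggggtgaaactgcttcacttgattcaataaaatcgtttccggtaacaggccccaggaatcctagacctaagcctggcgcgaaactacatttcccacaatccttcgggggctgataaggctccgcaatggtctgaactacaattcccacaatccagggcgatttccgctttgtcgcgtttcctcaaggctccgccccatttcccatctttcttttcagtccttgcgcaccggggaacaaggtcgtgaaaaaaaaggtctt
NDUFAF8: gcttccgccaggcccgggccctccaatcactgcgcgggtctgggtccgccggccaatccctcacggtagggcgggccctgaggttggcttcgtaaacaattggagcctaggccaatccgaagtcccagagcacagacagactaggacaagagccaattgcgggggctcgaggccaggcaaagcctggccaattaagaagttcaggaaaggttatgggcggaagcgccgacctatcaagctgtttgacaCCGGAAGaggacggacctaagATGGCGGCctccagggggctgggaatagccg
UQCC1: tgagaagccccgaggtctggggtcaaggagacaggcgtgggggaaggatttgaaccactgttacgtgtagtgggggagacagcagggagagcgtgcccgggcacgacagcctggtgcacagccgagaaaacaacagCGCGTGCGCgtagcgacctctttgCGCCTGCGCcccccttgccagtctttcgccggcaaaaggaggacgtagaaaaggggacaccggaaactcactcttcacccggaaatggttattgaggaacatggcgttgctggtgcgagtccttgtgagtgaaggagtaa
The COX7C window holds none of the 3 cores, the NDUFAF8 window holds 1 ETS core and 1 YY1 core, and the UQCC1 window holds 2 NRF1 cores. Windows were found for 85 members and for 9427 genes of the tables. The NRF1 core was in 31.8% of the members' windows and 15.8% of all windows, the ETS core in 31.8% and 20.5%, and the YY1 core in 18.8% and 6.62%. With siRNA8, 12 of the 27 members with the NRF1 core rose and 1 fell (median log2 change 0.15), against 11 and 10 of the 58 without it (median 0.01), by the authors' deposited table. For the ETS core, 6 of 27 members rose and 3 fell (median 0.05), against 17 and 8 of the 58 without it (median 0.07), by the authors' deposited table. For the YY1 core, 5 of 16 rose and 1 fell (median 0.11), against 18 and 10 of the 69 without it (median 0.05), by the authors' deposited table. Among all genes with a window, those with the NRF1, ETS and YY1 cores were called higher in 21.7%, 22.3% and 21.2% and lower in 20.3%, 19.3% and 19.6% with siRNA8. With siRNA5, the members that rose and fell were 6 and 4 with the NRF1 core (median 0.07), 2 and 4 with the ETS core (median -0.0049) and 3 and 1 with the YY1 core (median 0.11), by the authors' deposited table. Without the core they were 6 and 8 (median -0.0089), 10 and 8 (median 0.02) and 9 and 11 (median -0.01) with siRNA5. Among all genes with these cores, 26.8%, 25.3% and 24.5% were called higher and 20.9%, 20.1% and 20.4% lower with siRNA5. A match describes only the letters in these windows, and these splits were not tested.

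Complex I accepts electrons from NADH at its peripheral arm and pumps protons through its membrane arm. Of its 37 nuclear-encoded subunits, 5 rose and 4 fell with siRNA5, and 9 rose and 2 fell with siRNA8 by the authors' deposited tables, with medians of 0.05 and 0.05. The shares called were 24.3% and 29.7%, beside 46.4% and 41.5% of all genes. The 24.3% that rose with siRNA8 was near the 21.0% of all genes. Among the 7 core subunits, NDUFV1, which holds the flavin that accepts electrons from NADH, had implied levels of 1226 normalized counts with siRNA5, 1529 with siRNA8 and 1476 with NTC. NDUFV1 fell to 83.1% of control with siRNA5 (log2 -0.27, adjusted p = 0.000255, SE 0.067), and was at a log2 change of 0.05 (adjusted p = 0.566, SE 0.065) with siRNA8 per the authors' deposited tables. NDUFS1, the largest iron-sulfur subunit, rose to 119% with siRNA5 (log2 0.25, adjusted p = 9.09e-06, SE 0.051) and was at a log2 change of 0.10 (adjusted p = 0.102, SE 0.051) with siRNA8 per the authors' deposited tables. NDUFV2, another iron-sulfur subunit of the NADH-oxidizing arm, rose by 0.27 (adjusted p = 0.00113, SE 0.074) with siRNA8 and stood at 0.00 (SE 0.076) with siRNA5 per the authors' deposited tables. The core subunits NDUFS3, NDUFS7 and NDUFS8 were called with neither siRNA, with log2 changes from 0.03 to 0.19 with siRNA5 and from -0.08 to 0.12 with siRNA8 per the authors' deposited tables.

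Accessory subunits surround the core of complex I and stabilise it. Of the 30 measured, 4 rose and 3 fell with siRNA5, and 8 rose and 2 fell with siRNA8 by the authors' deposited tables. This is 23.3% and 33.3% called, beside 46.4% and 41.5% of all genes. NDUFAB1, the mitochondrial acyl carrier protein, rose by 0.38 (adjusted p = 2.84e-06, SE 0.075) with siRNA5 and by 0.29 (adjusted p = 0.000506, SE 0.075) with siRNA8 per the authors' deposited tables. The membrane-arm subunits NDUFB4 and NDUFB5 rose by 0.21 and 0.18 with siRNA5 and by 0.24 and 0.22 with siRNA8, and NDUFS6 rose by 0.22 (SE 0.070) and 0.19 (SE 0.070) per the authors' deposited tables. NDUFB10, also of the membrane arm, fell by 0.29 (SE 0.074) with siRNA5 and by 0.26 (SE 0.074) with siRNA8 per the authors' deposited tables. These 5 genes were called in the same direction with each siRNA, and both comparisons share the NTC libraries.

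Other accessory subunits were called with a single siRNA or in opposite directions. NDUFA10 fell by 0.35 (adjusted p = 5.84e-08, SE 0.061) with siRNA5 and was at a log2 change of 0.03 (adjusted p = 0.723, SE 0.059) with siRNA8 per the authors' deposited tables. NDUFA8 fell to 83.9% of control with siRNA5 (log2 -0.25, adjusted p = 0.00915, SE 0.086) and rose to 120% with siRNA8 (log2 0.27, adjusted p = 0.00463, SE 0.083) per the authors' deposited tables; its implied levels were 696.5 normalized counts with siRNA5, 998.8 with siRNA8 and 830.5 with NTC. NDUFB8 fell by 0.34 (adjusted p = 0.000298, SE 0.085) with siRNA8 and was at a log2 change of 0.18 (adjusted p = 0.0673, SE 0.084) with siRNA5 per the authors' deposited tables. NDUFA9, which sits where the arms of the complex meet, rose by 0.27 (SE 0.068), NDUFA5 by 0.25 (SE 0.076) and NDUFS5 by 0.21 (SE 0.069) with siRNA8, and with siRNA5 their log2 changes were 0.09, 0.12 and 0.12, not called, per the authors' deposited tables. The 19 further accessory subunits were called with neither siRNA. NDUFC2 had a mean of only 65.1 normalized counts and an SE of 0.29 with siRNA5, and its exons overlap those of the readthrough gene NDUFC2-KCTD14 in GENCODE 29.

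**Figure D3:**
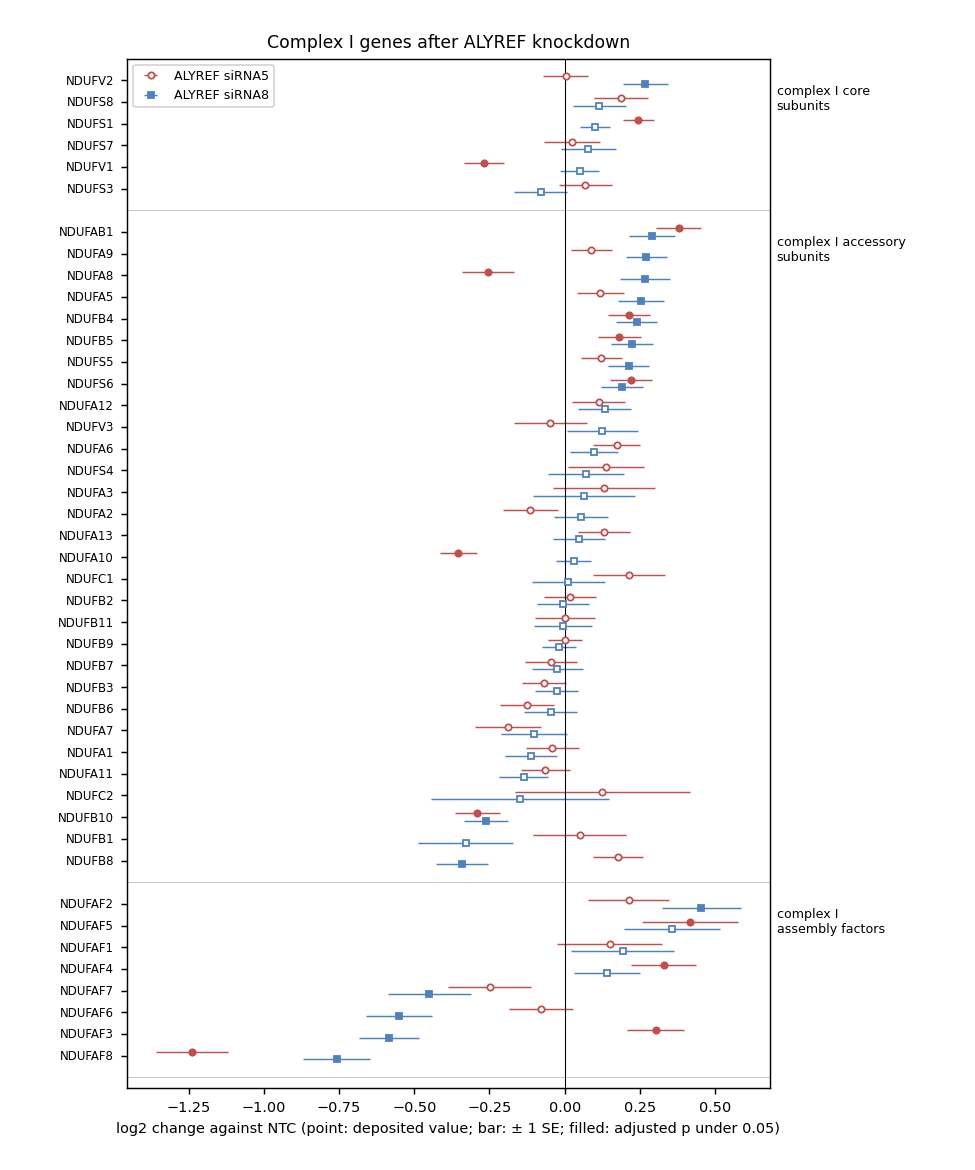
Log2 change against NTC with 1 SE for the complex I genes reported here, with siRNA5 as red circles above siRNA8 as blue squares for each gene, filled where the adjusted p is under 0.05. Subunits lie between -0.35 and 0.38 with both siRNAs, and the assembly factors spread further, down to -1.24 for NDUFAF8.

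Assembly factors of complex I spread more widely than its subunits in this plot. They also had lower means, with a median of 333 normalized counts against 973 for the subunits, and the SE rises as the mean falls. Whether the lower counts account for the wider spread was not tested. With siRNA5, 3 of 8 rose and 1 fell, and with siRNA8, 1 rose and 4 fell by the authors' deposited tables. The shares called were 50.0% and 62.5%, beside 46.4% and 41.5% of all genes. NDUFAF3 and NDUFAF4 act together in building the ubiquinone-binding module. NDUFAF3 had implied levels of 709 normalized counts with siRNA5, 383 with siRNA8 and 574 with NTC, above the control in the first and below it in the second. It rose to 123% of control with siRNA5 (log2 0.30, adjusted p = 0.00411, SE 0.094) and fell to 66.7% with siRNA8 (log2 -0.58, adjusted p = 6.33e-08, SE 0.10) per the authors' deposited tables. NDUFAF4 rose by 0.33 (adjusted p = 0.00668, SE 0.11) with siRNA5 and was at a log2 change of 0.14 (adjusted p = 0.311, SE 0.11) with siRNA8 per the authors' deposited tables. NDUFAF5, a hydroxylase of the core subunit NDUFS7 and partner of NDUFAF8, rose by 0.42 (adjusted p = 0.022, SE 0.16) with siRNA5 and was at a log2 change of 0.36 (adjusted p = 0.0579, SE 0.16) with siRNA8 per the authors' deposited tables, while NDUFAF8 itself fell with both. NDUFAF6 fell by 0.55 (adjusted p = 3.12e-06, SE 0.11) and NDUFAF7, a protein methyltransferase, fell by 0.45 (adjusted p = 0.00397, SE 0.14) with siRNA8; with siRNA5 their log2 changes were -0.08 and -0.25, not called, per the authors' deposited tables. NDUFAF2 rose by 0.45 (adjusted p = 0.00215, SE 0.13) with siRNA8, and its log2 change with siRNA5 was 0.21 (SE 0.13) per the authors' deposited tables. NDUFAF1 was called with neither.

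Complex II, succinate dehydrogenase, also acts in the tricarboxylic acid cycle, and its loss predisposes to paraganglioma and renal tumours. Its catalytic flavoprotein SDHA was slightly lower with both siRNAs: the implied levels were 3426 normalized counts with siRNA5, 3429 with siRNA8 and 3910 with NTC. SDHA fell to 87.6% of control (SE 0.047 on the log2 scale, adjusted p = 0.000246) with siRNA5 and to 87.7% (adjusted p = 0.000294, SE 0.047) with siRNA8 per the authors' deposited tables. The pseudogenes SDHAP1 and SDHAP2, with means of 111 and 32.2, had log2 changes of -0.28 and -0.70 with siRNA5 and -0.38 and -0.46 with siRNA8 and were not called per the authors' deposited tables. The iron-sulfur subunit SDHB had log2 changes of 0.07 (adjusted p = 0.425, SE 0.065) and 0.14 (adjusted p = 0.0626, SE 0.064) with siRNA5 and siRNA8 per the authors' deposited tables.

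The membrane anchors SDHC and SDHD moved differently. SDHC had implied levels of 954 normalized counts with siRNA5, 656 with siRNA8 and 916 with NTC, and was low with siRNA8 only. SDHC fell to 71.5% of control with siRNA8 (log2 -0.48, adjusted p = 2.65e-08, SE 0.081) and stood at 104% with siRNA5 (95% interval 93.6 to 116) by the authors' deposited tables. SDHD, with implied levels of 642 with siRNA5, 913 with siRNA8 and 796 with NTC, lay on either side of the control. It fell to 80.6% with siRNA5 (log2 -0.31, adjusted p = 0.000923, SE 0.085) and rose to 115% with siRNA8 (log2 0.20, adjusted p = 0.0381, SE 0.081) per the authors' deposited tables. Of the 4 assembly factors, SDHAF1, which helps to load the iron-sulfur clusters of SDHB, fell by 0.75 (adjusted p = 0.0032, SE 0.23) with siRNA5 and by 0.53 (adjusted p = 0.039, SE 0.22) with siRNA8, at a mean of 105, per the authors' deposited tables. SDHAF4 fell by 1.05 (adjusted p = 0.0238, SE 0.41) with siRNA5 and was at a log2 change of -0.35 (SE 0.37) with siRNA8, at a mean of only 30.0 per the authors' deposited tables. SDHAF2, which assists the attachment of flavin to SDHA, and SDHAF3 rose by 0.24 (SE 0.095) and 0.39 (SE 0.15) with siRNA8, and their log2 changes with siRNA5 were 0.19 and 0.03, not called, per the authors' deposited tables.

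Complex III transfers electrons from ubiquinol to cytochrome c. Of its 8 subunits, 1 rose and 1 fell with siRNA5, and 2 rose and 2 fell with siRNA8 by the authors' deposited tables. This is 25.0% and 50.0% called, beside 46.4% and 41.5% of all genes. The lowest mean among these 8 was 850 normalized counts. Of all genes with a mean of at least 500, 59.0% were called with siRNA5 and 53.6% with siRNA8. UQCRC2, a large core protein that faces the matrix, was low with siRNA5 only: its implied levels were 1543 normalized counts with siRNA5, 2308 with siRNA8 and 2379 with NTC. UQCRC2 fell to 64.9% of control with siRNA5 (log2 -0.62, adjusted p = 3.78e-25, SE 0.058) and stood at 97.0% with siRNA8 (95% interval 90.0 to 105) per the authors' deposited tables. Its partner core protein UQCRC1 had log2 changes of -0.05 (SE 0.058) and 0.06 (SE 0.057), and the Rieske iron-sulfur protein UQCRFS1 had -0.03 (SE 0.080) and -0.01 (SE 0.080), none of them called, per the authors' deposited tables. UQCR10 rose by 0.22 with siRNA5 (adjusted p = 0.0044, SE 0.069) and by 0.22 with siRNA8 (adjusted p = 0.00358, SE 0.068) per the authors' deposited tables. UQCRB and UQCRQ, small subunits beside cytochrome b, fell by 0.24 (SE 0.087) and 0.21 (SE 0.074) with siRNA8, and UQCRH, the hinge protein, rose by 0.19 (SE 0.067) per the authors' deposited table. UQCR11 was called with neither. With siRNA5 UQCRB, UQCRQ and UQCRH had log2 changes from -0.10 to 0.10 and were not called per the authors' deposited table. Among the assembly factors, UQCC1 rose with both siRNAs as given above, UQCC3 fell by 0.47 (adjusted p = 0.00689, SE 0.15) with siRNA8 and was at a log2 change of -0.11 (SE 0.15) with siRNA5, and UQCC2, the partner of UQCC1, had 0.16 (SE 0.11) and 0.14 (SE 0.11), not called, per the authors' deposited tables.

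Complex IV, cytochrome c oxidase, takes its catalytic core from mitochondrial DNA, and the 11 members here encode subunits added around it. With siRNA5, 1 rose and 1 fell, and with siRNA8, 3 rose and COX7C alone fell by the authors' deposited tables. The shares called were 18.2% and 36.4%, beside 46.4% and 41.5% of all genes. NDUFA4, first described as a complex I protein and now placed in complex IV, was low with siRNA5 only, with implied levels of 1056 normalized counts with siRNA5, 1968 with siRNA8 and 1771 with NTC. NDUFA4 fell to 59.6% of control with siRNA5 (log2 -0.75, adjusted p = 1.41e-22, SE 0.074) and stood at 111% with siRNA8 (95% interval 101 to 122; adjusted p = 0.0637) per the authors' deposited tables. COX7A2 rose by 0.29 (adjusted p = 0.000227, SE 0.071) with siRNA5 and by 0.23 (adjusted p = 0.0033, SE 0.071) with siRNA8 per the authors' deposited tables. COX5A and COX7B rose by 0.16 (adjusted p = 0.0342, SE 0.064) and 0.18 (adjusted p = 0.0411, SE 0.077) with siRNA8, and had 0.03 and 0.13, not called, with siRNA5 per the authors' deposited tables. COX4I1, which contacts the catalytic core, had log2 changes of -0.0049 (SE 0.055) with siRNA5 and 0.12 (adjusted p = 0.066, SE 0.055) with siRNA8 per the authors' deposited tables. COX5B, COX6A1, COX6B1, COX6C and COX8A were called with neither, with log2 changes from -0.16 to 0.09 and from -0.14 to 0.10 per the authors' deposited tables.

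Assembly factors of complex IV deliver heme A and copper and insert the mitochondrially made subunits. COX20, a chaperone of the newly made subunit that receives electrons from cytochrome c, had implied levels of 651 normalized counts with siRNA5, 469 with siRNA8 and 940 with NTC, and was low with both siRNAs. COX20 fell to 69.2% of control with siRNA5 (log2 -0.53, adjusted p = 2.83e-09, SE 0.084) and to 49.8% with siRNA8 (95% interval 44.2 to 56.1, adjusted p = 9.88e-29) per the authors' deposited tables. COX11, a copper-delivery factor, fell by 0.34 (adjusted p = 0.000765, SE 0.092) with siRNA5 and was at a log2 change of -0.01 (SE 0.089) with siRNA8 per the authors' deposited tables. COX10, the enzyme that starts heme A synthesis, rose by 0.49 (adjusted p = 3.57e-05, SE 0.11) with siRNA8 and had 0.08 (SE 0.11) with siRNA5 per the authors' deposited tables; COX15, which acts after it, had -0.09 and 0.01 and was not called. COX7A2L, which joins complex IV to complex III in supercomplexes, rose by 0.22 (adjusted p = 0.0022, SE 0.065) with siRNA8 and had -0.09 (SE 0.066) with siRNA5 per the authors' deposited tables. COX14, COX16, COX17, COX18 and COX19 were called with neither; the SE of COX16 was 0.36 with siRNA5 at a mean of 36.1, and its exons overlap the readthrough gene SYNJ2BP-COX16 in GENCODE 29.

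Changes in ATP synthase were small. Of its 15 subunits, 2 rose and 1 fell with siRNA5, and 4 rose and 1 fell with siRNA8 by the authors' deposited tables. With siRNA5 this is 13.3% higher and 6.67% lower, beside 24.4% and 22.0% of all genes. With siRNA8 it is 26.7% higher and 6.67% lower, beside 21.0% and 20.5% of all genes. The mean was at least 500 for 13 of the 15. Of all genes with such a mean, 29.1% rose and 24.6% fell with siRNA8. Among the 15 subunits, the largest called change was the rise of ATP5C1 with siRNA8. In the catalytic head, the alpha subunit ATP5A1 rose to 109% of control with siRNA5 (95% interval 103 to 116; adjusted p = 0.00528) and stood at 105% with siRNA8 (95% interval 99.2 to 111) per the authors' deposited tables. The beta subunit ATP5B stood at 105% (95% interval 98.7 to 112) and 104% (95% interval 98.3 to 111), not called, by the authors' deposited tables. ATP5C1, the gamma subunit of the rotating shaft, rose by 0.26 (adjusted p = 5.99e-06, SE 0.054) with siRNA8 and had 0.03 (SE 0.055) with siRNA5 per the authors' deposited tables. In the peripheral stalk, ATP5J and ATP5O rose by 0.19 (SE 0.066) and 0.15 (SE 0.056) and ATP5F1 fell by 0.12 (SE 0.048) with siRNA8; with siRNA5 their log2 changes were 0.15, -0.01 and -0.10, not called, per the authors' deposited tables. The genes ATP5G1, ATP5G2 and ATP5G3 encode the same mature c subunit of the membrane ring, and ATP5G2 alone was called, with rises of 0.18 (adjusted p = 0.0203, SE 0.066) and 0.19 (adjusted p = 0.0111, SE 0.066) per the authors' deposited tables. ATP5L, the g subunit at the membrane, fell by 0.25 (adjusted p = 0.00404, SE 0.077) with siRNA5 and had -0.09 (SE 0.076) with siRNA8 per the authors' deposited tables. ATP5D, ATP5E, ATP5H, ATP5I and ATP5J2 were called with neither, and ATP5E, at a mean of 17.8, had SEs of 0.48 and 0.51, too wide to show a change of the size seen in the other subunits. None of the 6 other matches of the rule was called with either siRNA, at means of 13.4 to 111.

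**Figure D4:**
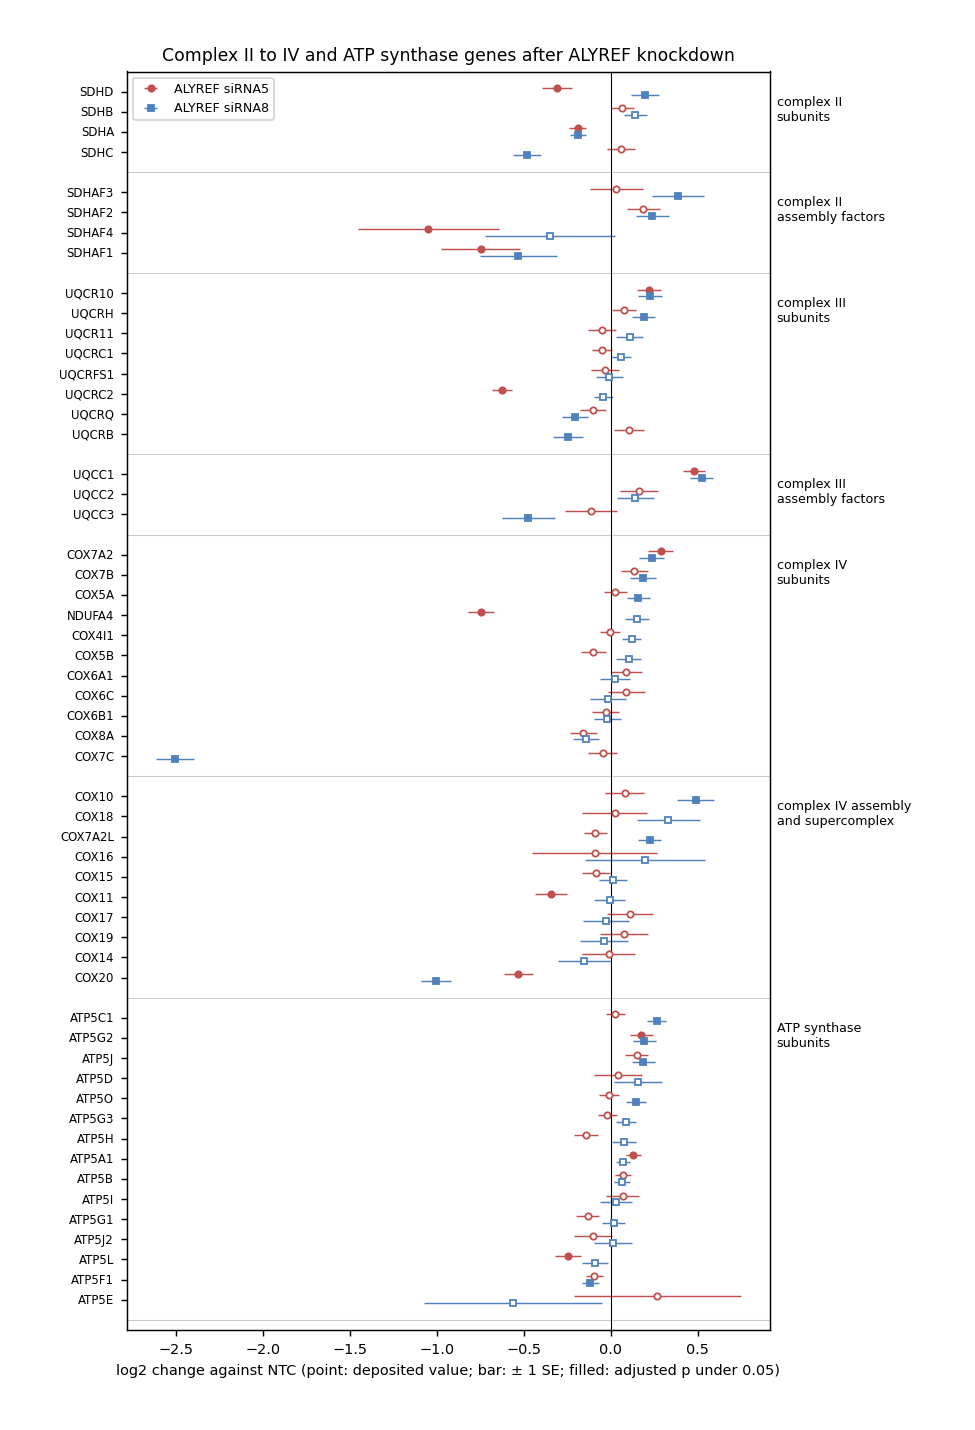
Log2 change against NTC with 1 SE for the 55 genes of complexes II to IV and ATP synthase, with siRNA5 as red circles above siRNA8 as blue squares for each gene, filled where the adjusted p is under 0.05. COX7C with siRNA8 stands alone at -2.51, and the ATP synthase subunits other than ATP5E lie between -0.25 and 0.26.

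The siRNAs were compared directly by the difference of their log2 changes, siRNA5 minus siRNA8, with Benjamini-Hochberg adjustment over all genes. The SE leaves out the covariance from the shared NTC libraries and is an upper bound. Of the 106 members, 7 were higher and 12 lower with siRNA5 than with siRNA8, or 17.9%, where 32.0% of all genes were called (17.2% higher and 14.8% lower); among genes with a mean of at least 500 it was 21.9% of the members and 45.6% of all genes. COX7C differed by 2.46 (adjusted p = 1.47e-70, SE 0.14), which is 5.49-fold higher with siRNA5. NDUFAF3 was higher with siRNA5 by 0.89 (adjusted p = 2.35e-09, SE 0.14), SDHC by 0.54 (adjusted p = 1.39e-05, SE 0.11) and NDUFB8 by 0.52 (adjusted p = 0.000101, SE 0.12). COX20, NDUFAF6 and UQCRB were higher with siRNA5 by 0.47, 0.47 and 0.35. NDUFA4 was lower with siRNA5 with a log2 difference at -0.90 (adjusted p = 3.17e-17, SE 0.10) and UQCRC2 by -0.58 (adjusted p = 1.45e-11, SE 0.081). NDUFA8, SDHD and NDUFAF8 had differences of -0.52, -0.51 and -0.48, and COX10, NDUFA10, COX11, NDUFV1, COX7A2L, NDUFV2 and ATP5C1 had differences from -0.41 to -0.24. By contrast, UQCC1 differed by -0.05 (adjusted p = 0.766, SE 0.092) and SDHA by -0.0012 (adjusted p = 0.994, SE 0.067). With the control variance rebuilt from the tables and removed, 29 members were called, 10 higher and 19 lower, and the share of all genes called was 48.1% under that setting, against 32.0% without it.

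**Figure D5:**
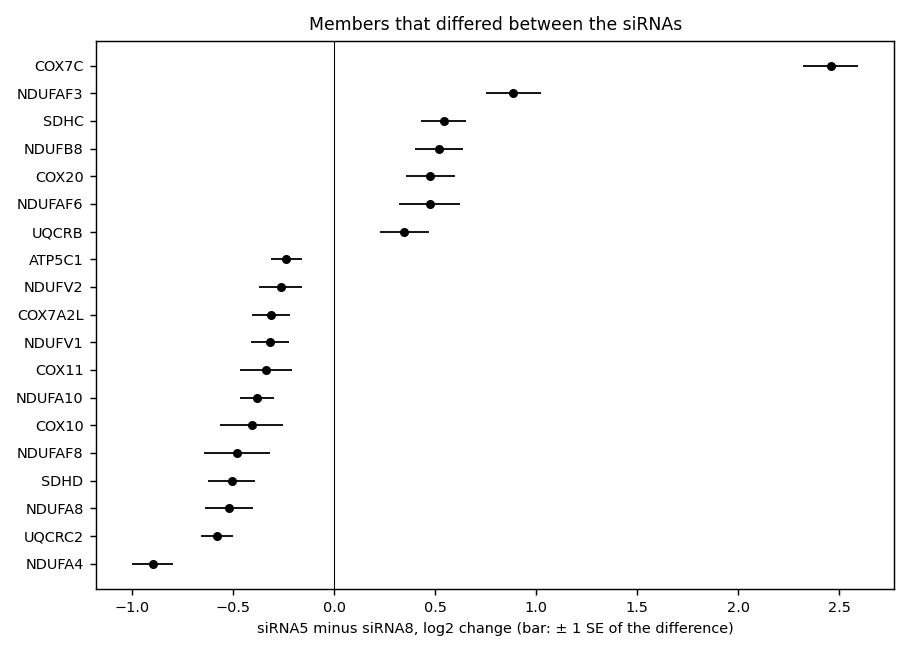
Difference of the log2 changes, siRNA5 minus siRNA8, with 1 SE, for the 19 members called in that comparison; positive values are higher with siRNA5. COX7C leads at 2.46, and NDUFA4 lies at the other end at -0.90.

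Genes of the same pathway whose symbols fall outside the rule are given by their counts, beside the 46.4% (siRNA5) and 41.5% (siRNA8) of all genes called. Of 12 further subunits and electron carriers, 2 rose and 2 fell with siRNA5, and 4 rose and 4 fell with siRNA8 by the authors' deposited tables. Cytochrome c, CYCS, rose by 0.26 (adjusted p = 2.56e-06, SE 0.051) with siRNA5 and by 0.26 (adjusted p = 2.85e-06, SE 0.051) with siRNA8 per the authors' deposited tables. The hypoxia-induced protein HIGD1A fell by 0.24 (SE 0.064) with siRNA5, and with siRNA8 the ferredoxin FDX1 fell by 0.70 (SE 0.13) and ETFDH, which feeds electrons from fatty acid oxidation to ubiquinone, rose by 0.48 (SE 0.13) per the authors' deposited tables. Of 10 measured complex I assembly factors outside the rule, 1 rose and 4 fell with siRNA5, and 0 rose and 5 fell with siRNA8 (median log2 changes -0.11 and -0.21) by the authors' deposited tables. TMEM126B and ACAD9, which act in the same intermediate assembly complex as NDUFAF1, fell by 0.53 (SE 0.11) and 0.20 (SE 0.075) with siRNA5 and by 0.29 (SE 0.11) and 0.32 (SE 0.075) with siRNA8 per the authors' deposited tables, while ECSIT of that complex rose by 0.31 (SE 0.090) with siRNA5. Of 22 measured assembly and expression factors of complexes III, IV and V, 5 rose and 4 fell with siRNA5, and 7 rose and 5 fell with siRNA8 by the authors' deposited tables. TACO1, the translational activator of the largest complex IV subunit, fell by 0.30 (adjusted p = 0.00372, SE 0.092) with siRNA5 and by 1.38 (adjusted p = 4.72e-39, SE 0.10) with siRNA8 per the authors' deposited tables. CHCHD7 was lower with each siRNA, at log2 changes of -0.56 and -0.95 (SE 0.13 for each), and CMC2 rose by 0.43 (SE 0.085) with siRNA5 and COA5 by 0.44 (SE 0.14) with siRNA8 per the authors' deposited tables.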

How the data were processed

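Polyadenylated RNA of 6 libraries was sequenced as paired ends of 42 nt, per the labels. The submitters' processing notes name STAR, Picard, HTSeq, DESeq2 and the build hg19, without versions or settings. The authors deposited 1 table per siRNA with 11681 rows, of which 2 are counters of unassigned reads (6.23% and 1.62% of the sum of means) and were left out. Per the file headers, the signal is the mean of normalized counts across libraries. The authors' fold changes and standard errors are log2 values per the file headers. Their ratio is the deposited Wald score, as was checked. The authors' deposited p-values were adjusted over all rows, also checked, and were used as the test across all genes. Tables were assigned to siRNAs by the number in their names and the library titles.

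Computed here (Python 3.11.15, pandas 2.3.3, scipy 1.17.1) were counts of calls, implied group levels and the difference between siRNAs. Implied levels fit the deposited standard errors with a slope of 1.14, where 1 would be 2 libraries per group of equal depth (84 genes). Of the members, 105 matched RefSeq and 106 GENCODE 29; GRCh38 was used only for promoters, pseudogenes and exon overlaps, of which 49 and 24 members had some. Members and lists were chosen with earlier results of these data known. A rule on size of change, direction and core subunits picked 35 genes for fuller statistics, though not every statistic of each is printed. Alternatives were other thresholds, filters on the mean, centring and the rebuilt control variance. The values of 1 complex I gene are not reported here, although it is among the members counted.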

Additional observations from a re-analysis of the deposited data

Results flagged for a closer look

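The following members were called in opposite directions with the 2 siRNAs against NTC, and the difference siRNA5 minus siRNA8 itself passed the adjusted p of 0.05. NDUFAF3, the complex I assembly factor, was higher with siRNA5 by 0.89 (SE 0.14, adjusted p = 2.35e-09). SDHD, the complex II membrane anchor, had a difference of -0.51 (SE 0.12, adjusted p = 0.000115). NDUFA8, an accessory subunit of complex I, had a difference of -0.52 (SE 0.12, adjusted p = 0.000106). Of all genes, 46.4% were called with siRNA5, 41.5% with siRNA8 and 32.0% in the difference. The share of all genes that meet this rule was not computed, so whether it is met more often among the members is not known. Genes outside the set, such as DLD and KRT8, met it as well. Which libraries carry these differences was not tested, since values per library were not analysed here.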

How the results depend on the processing

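No paired analysis was possible because the tables give fold changes per siRNA and no values per library; for the same reason leaving out each replicate and another count test were not run. With a log2 change of at least 0.3 required, the members called were 14 with siRNA5 (5 higher, 9 lower) and 14 with siRNA8 (4 higher), and of all genes 33.4% and 28.6%. At an adjusted p under 0.01, 26 members were called with siRNA8 (15 higher), and 32.0% of all genes. With the control variance removed from the difference between siRNAs, 29 members were called (19 lower), and 48.1% of all genes. The other counts, under thresholds of 0.01 and 0.1, filters at means of 50 and 500, centring on the median, and subunits and assembly factors only (chosen after seeing the data), moved by no more than 1.5 times. The 35 genes picked for fuller statistics were mostly picked for the size of their change. Over 603 values of these genes, 566 kept direction and side of the threshold, and 26 lost and 10 gained a call. NDUFV2 with siRNA5 changed sign without a call, at -0.0068 after centring. The SE rises as the mean falls, so genes such as ATP5E, NDUFC2 and COX16 could not show small changes.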

Other observations

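The counts below stand beside the 46.4% (siRNA5) and 41.5% (siRNA8) of all genes called. The tricarboxylic acid cycle supplies NADH and succinate to the chain. Of its 19 genes with pyruvate dehydrogenase, 52.6% were called with siRNA5 and 36.8% with siRNA8, near those shares: 5 rose and 5 fell with siRNA5, and 4 rose and 3 fell with siRNA8 by the authors' deposited tables. DLD, the dehydrogenase shared by the pyruvate and oxoglutarate complexes, rose by 0.33 (adjusted p = 1.88e-08, SE 0.056) with siRNA5 and fell by 1.30 (adjusted p = 1.91e-86, SE 0.065) with siRNA8 per the authors' deposited tables. PDHX, a structural subunit of pyruvate dehydrogenase, rose by 0.65 (SE 0.078) and the isocitrate dehydrogenase IDH2 fell by 0.57 (SE 0.083) with siRNA5, and the malate dehydrogenase MDH2 rose by 0.56 (SE 0.046) with siRNA8, per the authors' deposited tables.

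Of 11 measured genes of ubiquinone synthesis and function (the COQ and PDSS genes), 2 rose and 2 fell with siRNA5, and 1 rose and 2 fell with siRNA8 by the authors' deposited tables. COQ4 fell by 0.63 (SE 0.12) with siRNA5 and by 0.52 (SE 0.12) with siRNA8, COQ10B rose by 0.75 (SE 0.10) with siRNA5, and PDSS1, which makes the side chain, rose by 0.52 (SE 0.12) with siRNA8 per the authors' deposited tables. Of 14 measured regulators of mitochondrial biogenesis and mitochondrial DNA expression, 4 rose and 3 fell with siRNA5, and 4 rose and 2 fell with siRNA8 by the authors' deposited tables. The coactivator PPARGC1B rose by 0.82 (SE 0.22) with siRNA5 and by 0.58 (SE 0.22) with siRNA8, at a mean of 84.1, and the mitochondrial elongation factor TEFM fell by 0.48 (SE 0.16) and 0.46 (SE 0.16) per the authors' deposited tables. TFAM, which packages mitochondrial DNA and was picked out after seeing its values, rose by 0.63 (SE 0.054) with siRNA5 and by 0.55 (SE 0.054) with siRNA8 per the authors' deposited tables. The factor NRF1 had log2 changes of -0.09 (SE 0.12) and -0.12 (SE 0.12) and was called with neither siRNA per the authors' deposited tables.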
